A study of Mus musculus with 10 samples.

Results

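The 10 genes described here belong to the bone morphogenetic protein (BMP) signalling pathway: the receptors Bmpr1a and Bmpr2, the signal-carrying SMADs Smad1 and Smad5, the inhibitors Smad6, Smad7 and Bambi, and the target genes Id1, Id2 and Id3. They were chosen by name, with earlier results of these data known. All 10 had a row among the 35006 gene rows of every library. All 10 also passed the filter on low counts, as did 13708 genes in all. The question put to the data is how these genes are set in crypt cells sorted by reported CDK9 activity. Among the 5 sorted populations, the Id genes and both inhibitory SMADs had their highest means in P1, by 2.6-fold to 4.88-fold over their lowest population. The share of all genes with their highest mean in P1 is not given. Smad7, Id1 and Id2 passed the test over the 5 populations, as did 36.3% of all genes tested. Bambi stood apart, at a mean of 351 ± 16 counts per 1000000 (CPM, SD, n = 2) in the libraries labelled P2 against 2.1 to 25.3 CPM elsewhere. CPM are taken per library size scaled by a trimmed mean (TMM), unless library totals are named. With library totals, the mean of Bambi was 245 CPM in P2 against 1.99 to 24.1 elsewhere. With TMM scaling, Bmpr1a, Bmpr2, Smad1 and Smad5 differed by 1.31-fold to 2.02-fold between their highest and lowest population and did not pass. With library totals in its place, each had its highest mean in another population. Their means then spanned 65.6 to 153, 12.7 to 26.9, 29.2 to 68.3 and 26.9 to 67.6 CPM, in the same order.

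BMP ligands join a type I and a type II receptor, and the type I receptor then phosphorylates the receptor SMADs, which enter the nucleus with Smad4 and switch on targets such as the Id genes. Id proteins bind basic helix-loop-helix factors and keep them from DNA, and Smad6, Smad7 and Bambi hold the signal back. In the intestine BMP signalling is known to be low at the crypt base, where antagonists from the stroma shield the stem cells, and to increase towards the villus, where it favours differentiation.

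The cells came from small-intestinal crypts of C57BL6/J mice that carry the EF1a-OSCAR reporter in all populations compared, and their age is not given in the labels. The reporter sits in the Rosa26 locus under the EF1a promoter, its stop cassette was removed in the germline with Vasa-cre, and it makes mCherry together with a Venus variant (VeN90) whose light falls when CDK9, the kinase of elongating RNA polymerase II, phosphorylates it. The OSCAR value is the ratio of VeN90 to mCherry, so a high value reports low CDK9 activity, and the EF1a gate separates cells by how strongly the whole reporter is expressed. P1 was labelled OSCARlow EF1alow, P2 OSCARhigh EF1alow, P3 OSCARlow EF1ahigh, P4 OSCARmed EF1alow and P5 OSCARmed EF1ahigh. Live cells positive for the epithelial protein EpCAM were sorted, 10000 per population, and poly-A RNA was made into 2 libraries for each, which gave 10. The study calls the replicates biological, while the labels give only their numbers, and if the replicates were not separate animals, the p-values measure a spread that may be technical. Each library is a bulk of sorted cells, so fewer cells of a type and less RNA per cell cannot be told apart.

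The libraries held 3857612 to 6485823 counts on genes. The floor of 3 counts corresponded to 0.297 to 1.59 CPM and covers counting error only. Epithelial markers summed to 3380 to 8060 CPM in every library, while stromal fibroblast markers summed to at most 4.65 CPM, smooth muscle markers to at most 6.99 CPM and endothelial markers to at most 5.34 CPM. The study's text places secretory cells in P3, whereas their markers were found in the libraries labelled P2. Paneth cell markers summed to 339000 to 473000 CPM there against 1470 to 2760 CPM in the libraries labelled P3, and goblet cell markers to 55900 to 125000 CPM against 1980 to 4220 CPM. These CPM are TMM-scaled, with factors of 0.6888 and 0.7085 in P2, so such a sum is not a share of the counts. Cycling cell markers were lowest in the libraries labelled P2, at 66.7 to 92.1 CPM against 671 to 1180 CPM in those labelled P3. No library was renamed, and every direction that involves P2 or P3 follows the label. In replicates 1 and 2 labelled P3, 59.2% and 36.1% of counts were mitochondrial, against 1.04% to 5.19% elsewhere. The enterocyte marker sum was highest in P1, at 38600 to 45900 CPM, though not every gene of that list was. Lymphocyte and leukocyte markers were also highest in P1, at 890 CPM in replicate 1 and 641 CPM in replicate 2, in a sort gated on EpCAM.

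Sequence was available in the RefSeq promoter table (GRCm38.p6) for 7 of the 10 members, and Id1, Smad7 and Bambi have no entry in it. The promoters of Smad6, Id2 and Id3, which had their highest means in P1, are shown. Smad1 was also highest in P1 with TMM scaling, and its entry, which is not shown, holds neither of the words marked below. Each sequence covers the 250 bases before the start of transcription, written 5′ to 3′ on the gene's strand. Capitals mark the words GGCGCC and GGAGCC, the latter read as GGCTCC where it lies on the other strand, which are GC-rich words of the kind that BMP-responsive SMADs are known to bind. Smad6 spans chr9:64022060-64022309 on the minus strand, Id2 chr12:25096093-25096342 on the minus strand and Id3 chr4:136143572-136143821 on the plus strand.
Smad6: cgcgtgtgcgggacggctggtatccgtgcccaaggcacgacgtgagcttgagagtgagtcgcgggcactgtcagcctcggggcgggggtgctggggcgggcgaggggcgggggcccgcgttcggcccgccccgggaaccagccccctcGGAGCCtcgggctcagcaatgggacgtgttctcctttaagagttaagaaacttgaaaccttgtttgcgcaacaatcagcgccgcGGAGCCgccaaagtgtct
Id2: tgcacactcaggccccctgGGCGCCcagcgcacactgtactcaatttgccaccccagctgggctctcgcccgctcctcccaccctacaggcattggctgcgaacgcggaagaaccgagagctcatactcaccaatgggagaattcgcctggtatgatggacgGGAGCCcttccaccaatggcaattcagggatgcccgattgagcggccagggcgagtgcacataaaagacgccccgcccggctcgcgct
Id3: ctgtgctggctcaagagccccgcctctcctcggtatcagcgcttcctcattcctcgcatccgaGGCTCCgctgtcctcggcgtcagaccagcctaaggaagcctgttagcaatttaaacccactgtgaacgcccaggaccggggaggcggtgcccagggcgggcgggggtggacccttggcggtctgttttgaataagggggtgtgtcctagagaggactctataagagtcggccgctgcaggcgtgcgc

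GGAGCC was found at 2 positions in the Smad6 promoter and at 1 in each of the Id2 and Id3 promoters, with the Id3 match on the opposite strand. GGCGCC, which reads the same on both strands, was found at 1 position in Id2. Both strands were searched, and the words do not overlap one another in these sequences. Of 32851 promoters of the same length, 26.0% held GGAGCC and 9.59% held GGCGCC, while the short SMAD box GTCT, which is not marked above, occurred in 82.9%. Among the other members with an entry, GGCGCC was found at 1 position in the promoters of Bmpr1a and Bmpr2 and in 1 of the 3 listed for Smad5, GGAGCC at 1 in another of these 3, and neither in Smad1. A match is a description of the letters only.

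Over the 5 populations, 4 of the 10 members passed the test, the quasi-likelihood test of edgeR at a Benjamini-Hochberg adjusted p under 0.01, where 36.3% of all genes tested passed. They were Bambi (adjusted p = 0.000215), Smad7 (adjusted p = 0.00126), Id2 (adjusted p = 0.0046) and Id1 (adjusted p = 0.00515). The share of members past the threshold was close to that of all genes. Between 2 populations, an exact permutation test of a single gene with 2 libraries each cannot go below p = 0.333 (two-sided).

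**Figure D1:**
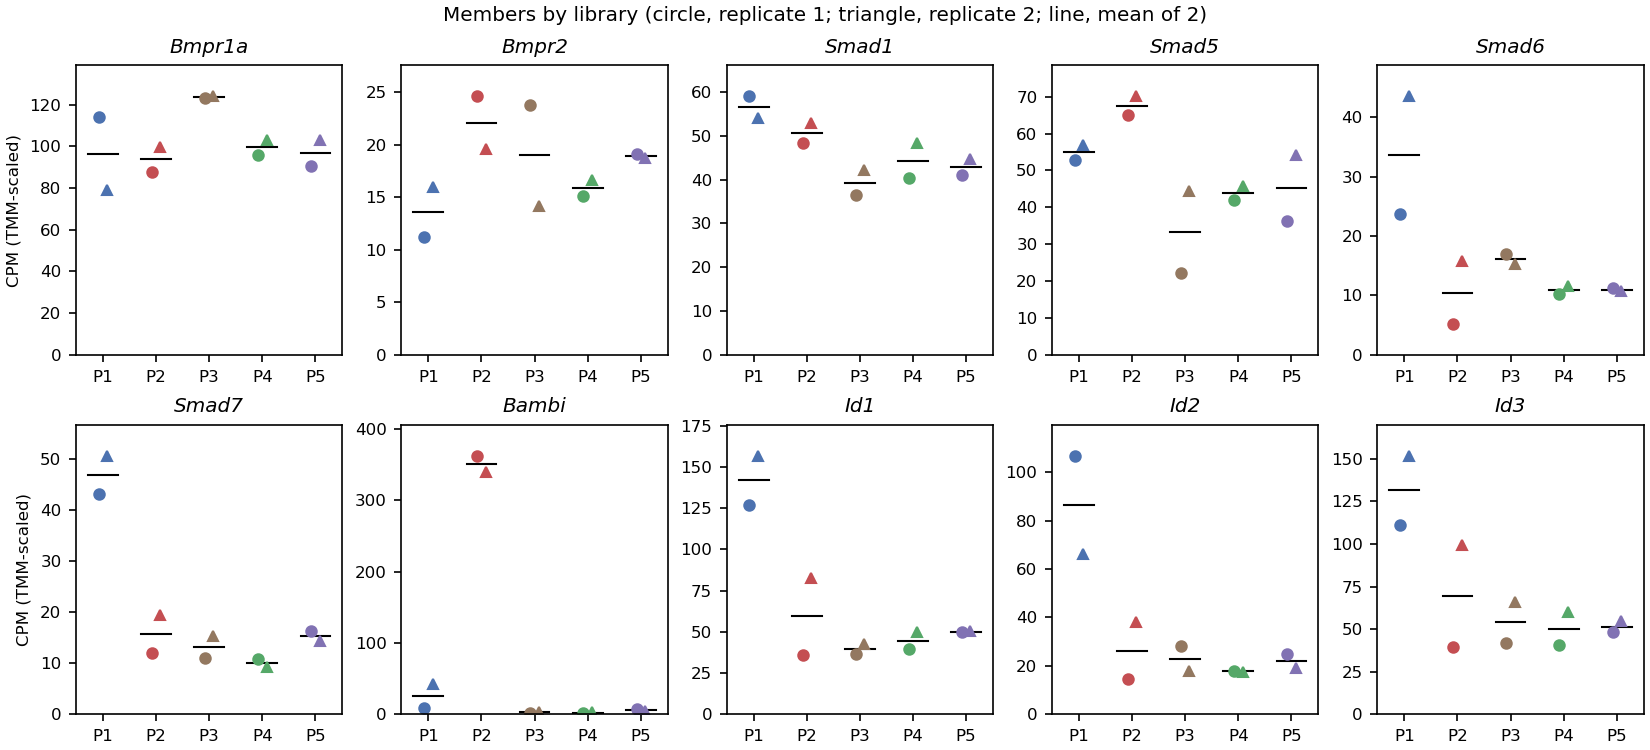
TMM-scaled CPM of each of the 10 members (vertical axes, linear from 0) in the 2 libraries of each labelled population (horizontal axes), with replicate 1 as a circle, replicate 2 as a triangle and the mean as a line. Id1, Id2, Id3, Smad6 and Smad7 are higher in both P1 libraries than in the other 8, and Bambi is at 340 to 363 CPM in the libraries labelled P2. The share of all genes that separate in this way is not given.

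Bmpr1a, the type I receptor through which most intestinal BMP signalling passes (chromosome 14, 35223920 to 35316527, NCBIM37), was measured at 114 and 79.1 CPM in replicates 1 and 2 for P1, 87.9 and 99.6 for P2, 123 and 124 for P3, 95.9 and 103 for P4, and 90.6 and 103 for P5. Both libraries labelled P3 lay above the other 8, by a mean that was at most 1.31-fold higher, and no pair of populations passed, the lowest adjusted p being 0.182. With library totals in place of TMM, Bmpr1a was instead 0.77 (log2) higher in P4 than in P3. Of the exon bases of Bmpr1a, 290 overlap Gm17110 on the opposite strand, and the counts were made without strand. Bmpr2, the type II receptor (chromosome 1, 59821481 to 59927703), was lower, at 11.2 and 16.0 CPM for P1, 24.6 and 19.6 for P2, 23.8 and 14.2 for P3, 15.1 and 16.6 for P4, and 19.1 and 18.7 for P5. Its largest difference with TMM was 0.70 ± 0.32 (log2 ± SE) between the libraries labelled P2 and P1, with an adjusted p of 0.100. With library totals that difference was 0.25, and the largest was 1.09 (log2) for P5 against P3.

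Smad1 and Smad5 are the receptor SMADs that Bmpr1a phosphorylates. Smad1 (chromosome 8, 81862294 to 81923417) was measured at 59.0 and 54.0 CPM for P1, 48.3 and 52.9 for P2, 36.5 and 42.1 for P3, 40.3 and 48.4 for P4, and 41.1 and 44.7 for P5. The P1 libraries were the highest, and the largest difference, -0.52 ± 0.19 (log2) for P3 against P1, had an adjusted p of 0.0628. Smad5 (chromosome 13, 56804371 to 56843738) was measured at 52.9 and 56.9 CPM for P1, 65.1 and 70.1 for P2, 22.2 and 44.5 for P3, 42.1 and 45.7 for P4, and 36.3 and 54.2 for P5. With TMM the libraries labelled P2 were the highest for Smad5, which with library totals was instead 0.52 and 0.46 (log2) higher in P4 and P5 than in P2, and its difference of -0.98 ± 0.31 (log2) for P3 against P2 had an adjusted p of 0.0348. Neither gene passed in any pair. The direction of both SMADs between P1 and P4 or P5 depends on the scaling: with library totals in place of TMM, Smad1 was 0.35 and Smad5 0.37 (log2) higher in P4 than in P1, where TMM gave -0.35 and -0.32.

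Smad7 blocks the type I receptor and recruits the ubiquitin ligases that remove it, and it is itself a target of the pathway. It lies on chromosome 18 (75527183 to 75555589). Its values were 43.1 and 50.7 CPM for P1, 11.9 and 19.4 for P2, 11.1 and 15.3 for P3, 10.9 and 9.20 for P4, and 16.3 and 14.3 for P5. Both P1 libraries were above every other library, and the other 4 populations overlapped in part. Smad7 was lower than in P1 by 2.98-fold in P2 (log2 -1.58 ± 0.30, adjusted p = 0.0029), 3.49-fold in P3 (-1.80 ± 0.31, adjusted p = 0.00348), 4.67-fold in P4 (-2.22 ± 0.30, adjusted p = 0.00122) and 3.06-fold in P5 (-1.62 ± 0.30, adjusted p = 0.00372). No pair among P2, P3, P4 and P5 passed. With any single library left out, all 4 differences stayed negative, between -2.34 and -1.27 (log2). The P2 and P3 calls were lost without P1 replicate 1, without P1 replicate 2 and without replicate 1 of the compared population, the P4 call without either P4 replicate, and the P5 call when any 1 library of P1 or P5 was left out, with an adjusted p between 0.0105 and 0.0418 in these cases. The test over the 5 populations was lost without P1 replicate 2 (adjusted p = 0.0159). The enterocyte marker sum was also highest in P1, at 45900 and 38600 CPM against 1970 to 23700 CPM in the other 8 libraries. Within the list, Fabp1, Fabp2, Vil1 and Krt20 were highest in both P1 libraries, and Apoa1 and Apoa4 in P1 replicate 1 alone. Sis, Slc5a1, Lct and Alpi were higher in replicate 1 of P3 and of P5 than in P1. Sis was at 1610 and 850 CPM in P1 and at 6640 in P3 replicate 1. The part of enterocytes in the differences of the genes that were highest in P1 was not tested.

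Smad6, the inhibitory SMAD that acts mainly on BMP receptors and competes with Smad4 for Smad1, lies on chromosome 9 (63800953 to 63869866). It was measured at 23.7 and 43.5 CPM for P1, 5.17 and 15.8 for P2, 16.9 and 15.3 for P3, 10.3 and 11.6 for P4, and 11.2 and 10.7 for P5. Both P1 libraries lay above the other 8, and their SD was 14.1 around a mean of 33.6 CPM. The differences from P1 were -1.65 ± 0.47 in P2 (log2, adjusted p = 0.0183), -1.07 ± 0.47 in P3 (adjusted p = 0.108), -1.62 ± 0.46 in P4 (adjusted p = 0.0198) and -1.62 ± 0.46 in P5 (adjusted p = 0.0214), and none passed. Over the 5 populations Smad6 had an adjusted p of 0.0289, with 0.00244 by DESeq2 and 0.294 without P1 replicate 2.

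Bambi is a pseudoreceptor that resembles a type I receptor without its kinase and takes its place in the receptor complex, and it is a target of both BMP and Wnt signalling. It lies on chromosome 18 (3507955 to 3516402), and the row of a pseudogene, Bambi-ps1, exists beside it, so reads shared with that copy are uncertain. Its values were 363 and 340 CPM in the libraries labelled P2, 8.79 and 41.9 for P1, 1.59 and 3.32 for P3, 1.22 and 2.97 for P4, and 7.54 and 4.01 for P5. These rest on 1193 and 1529 counts in P2, 52 and 251 for P1, 3 and 15 for P3, 10 and 30 for P4, and 66 and 38 for P5. No other library reached a level near those labelled P2, and the P1 libraries differed from each other by more than P5 differed from P4.

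Bambi was 13.9-fold higher in P2 than in P1 (log2 3.79 ± 0.65, adjusted p = 0.00174). Against P2 it was 129-fold lower in P3 (log2 -7.01 ± 0.83, adjusted p = 0.000415), 163-fold lower in P4 (-7.35 ± 0.80, adjusted p = 0.000559) and 60.8-fold lower in P5 (-5.93 ± 0.73, adjusted p = 0.000661). These 4 calls held with each single library left out and under each other alternative run, with the P2 to P1 difference between 3.05 and 5.33 (log2), the highest without P1 replicate 2. Bambi was also 11.7-fold lower in P4 than in P1 (log2 -3.55 ± 0.72, adjusted p = 0.00474), a call that was lost without P1 replicate 2 (log2 -1.99, adjusted p = 0.0265) and without either P4 replicate (adjusted p up to 0.037). The differences from P1 of -3.22 in P3 (adjusted p = 0.0147) and -2.13 in P5 (adjusted p = 0.0282) did not pass. The Paneth marker sum was also highest in the libraries labelled P2, at 473000 and 339000 CPM. It was 15900 and 52000 in P1, where Bambi also differed between the replicates, and 403 to 8810 CPM in the other populations. In replicates 1 and 2 labelled P3 it was 2760 and 1470 CPM, while Bambi went the other way, at 1.59 and 3.32 CPM. Other secretory markers were also highest in the libraries labelled P2: goblet markers summed to 55900 to 125000 CPM against at most 10400 elsewhere, enteroendocrine markers to 4780 to 11700 against at most 643, and tuft markers to 455 to 826 against at most 187. The part of these cells in the Bambi differences was not tested.

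**Figure D2:**
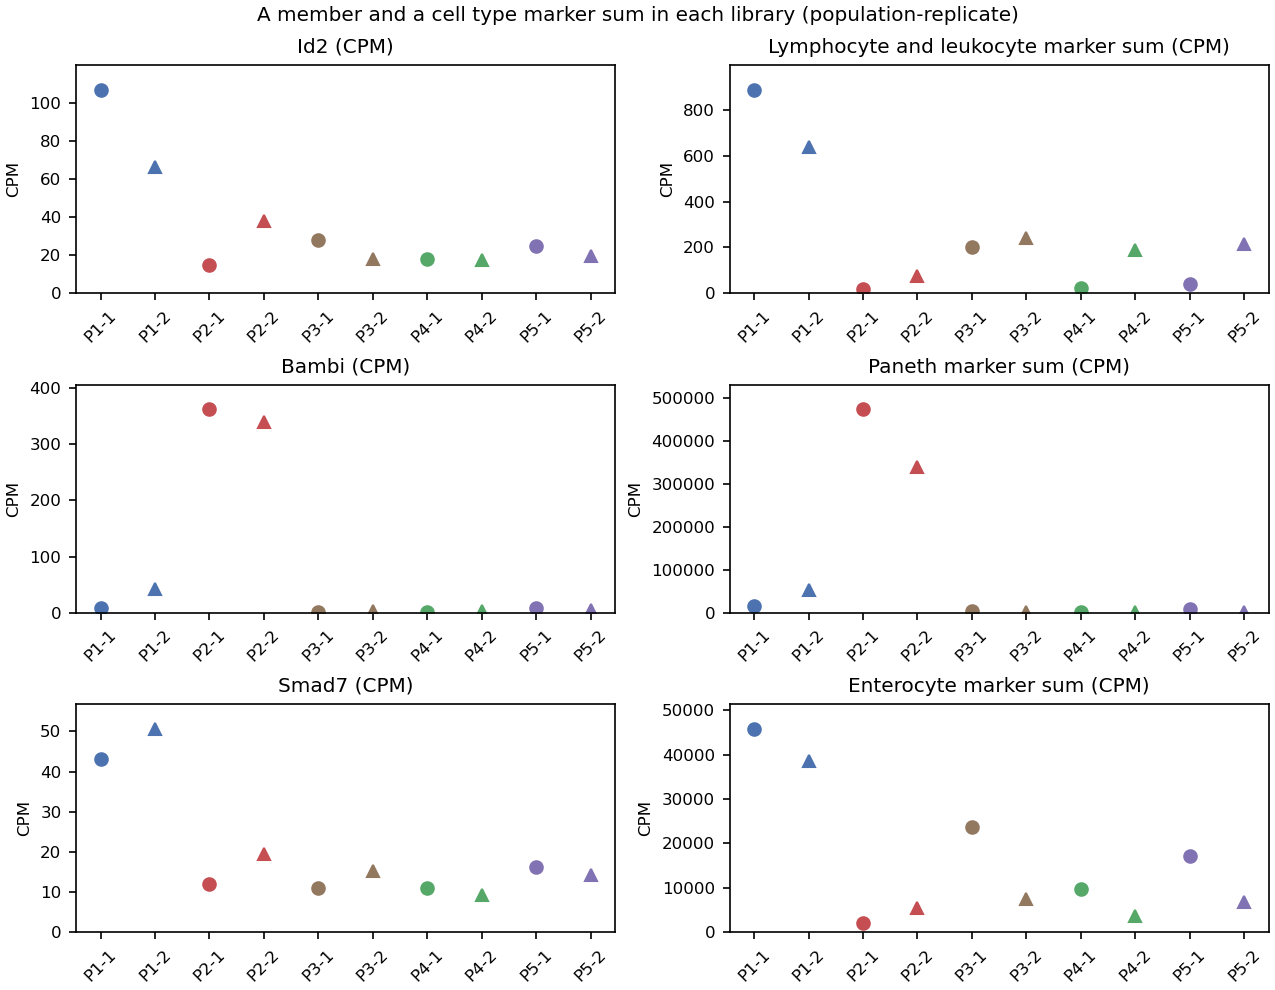
CPM of Id2, Bambi and Smad7 (left) beside the summed CPM of the lymphocyte and leukocyte, Paneth and enterocyte marker lists (right) in each of the 10 libraries, named by population and replicate on the horizontal axis, with all vertical axes linear from 0. Bambi and the Paneth sum are both highest in the libraries labelled P2, and Id2 and the lymphocyte sum are both highest in P1 replicate 1.

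Id1 is the classical immediate target of BMP signalling. It lies on chromosome 2 (152561987 to 152563146). Its values were 127 and 157 CPM for P1, 35.9 and 82.7 for P2, 36.5 and 42.7 for P3, 39.3 and 49.7 for P4, and 50.0 and 50.3 for P5. The P1 libraries did not overlap with any other, and the libraries labelled P2 spanned the range of the remaining 6. Id1 was 3.57-fold lower in P3 than in P1 (log2 -1.83 ± 0.35, adjusted p = 0.00508), 3.19-fold lower in P4 (-1.67 ± 0.34, adjusted p = 0.00491) and 2.83-fold lower in P5 (-1.50 ± 0.34, adjusted p = 0.00871). The difference of -1.25 ± 0.34 in P2 did not pass (adjusted p = 0.0146). With a single library left out, the 3 differences stayed between -1.99 and -1.31 (log2), but each call was lost when 1 library of P1 or of the compared population was left out, and the P5 call also when 1 library of P4 was, with an adjusted p of 0.0149 to 0.0608. The P5 call was also lost with mitochondrial genes removed, at an adjusted p of 0.011. The test over the 5 populations was lost when any 1 library of P1, P4 or P5 was left out, with an adjusted p of 0.0103 to 0.0535.

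Id2, which is also strongly expressed in lymphoid cells, lies on chromosome 12 (25778666 to 25780957). It was measured at 107 and 66.2 CPM for P1, 14.6 and 38.0 for P2, 28 and 17.7 for P3, 18.0 and 17.5 for P4, and 24.7 and 19.3 for P5. Both P1 libraries were above the other 8, with replicate 1 the highest. Id2 was 4.88-fold lower in P4 than in P1 (log2 -2.29 ± 0.43, adjusted p = 0.00358) and 3.94-fold lower in P5 (-1.98 ± 0.43, adjusted p = 0.00721), while the differences of -1.71 ± 0.43 in P2 (adjusted p = 0.0105) and -1.95 ± 0.44 in P3 (adjusted p = 0.0102) did not pass. The P4 call was lost without P1 replicate 1 (log2 -1.90, adjusted p = 0.0254) and without either P4 replicate, where the adjusted p reached 0.0328, and the P5 call when any 1 library of P1, P4 or P5 was left out, where the log2 difference was -2.25 to -1.59 and the adjusted p 0.013 to 0.0626. The test over the 5 populations had an adjusted p of 0.0628 without P1 replicate 1, 0.0129 without P1 replicate 2, and 0.0118 and 0.0119 without replicates 1 and 2 of P4.

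P1 replicate 1, where Id2 was highest, also had the highest lymphocyte and leukocyte marker sum. In replicates 1 and 2 of P1 the T cell genes were at 27.5 and 10.3 CPM for Cd3e, 121 and 23.9 for Cd8a and 391 and 129 for the granzyme gene Gzma, and the pan-leukocyte gene Ptprc was at 112 and 25.7 CPM. The antigen presentation gene Cd74 of the same list went the other way, at 62.5 and 397 CPM. The sum was 890 and 641 CPM in P1, and 18.5 to 239 CPM in the other 8 libraries, and without Cd74, left out after its values were seen, it was 827 and 244 CPM in P1 and 0.845 to 150 elsewhere. The part of these cells in the Id2 level was not tested. Without P1 replicate 1 and P3 replicate 1, the library with the higher mitochondrial share, Id2 differed from P1 by -1.90 (log2) in P4 (adjusted p = 0.0167) and by -1.59 in P5 (adjusted p = 0.0325).

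Id3 (chromosome 4, 135699412 to 135701670) was measured at 111 and 152 CPM for P1, 39.5 and 99.2 for P2, 41.8 and 66.2 for P3, 40.5 and 60.1 for P4, and 48.0 and 54.5 for P5. P1 was again the highest, but P2 replicate 2 came close to P1 replicate 1. The differences from P1 were -0.92 in P2, -1.27 in P3, -1.38 in P4 and -1.36 in P5 (log2, SE 0.41 to 0.42), with adjusted p of 0.0952, 0.0431, 0.0245 and 0.0277, and none passed. Over the 5 populations the adjusted p was 0.0453, with 0.00577 by DESeq2 and 0.302 without P1 replicate 2.

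The pairs of populations were read against the share of all genes called in the same pair. Against P1, 2 members were called in P2 (1 higher, 1 lower) where 29.1% of genes were, 2 in P3 (both lower) where 15.6% were, 4 in P4 (all lower) where 23.5% were, and 3 in P5 (all lower) where 19.8% were. The median log2 difference of the 10 members from P1 was -0.54 in P2, -1.17 in P3, -1.50 in P4 and -1.43 in P5, against 0.01, -0.03, 0.06 and 0.04 over all genes tested. These comparisons share the P1 libraries, and the members were chosen with earlier results of these data known. With a library left out, edgeR called 0% of all genes for P3 against P1 (without P1 replicate 1), P4 against P1 (without either P4 replicate) and P5 against P1 (without P5 replicate 2), so the calls of members lost there do not single them out. Against P2, Bambi was the 1 member called in each of P3, P4 and P5, where 21.0%, 14.3% and 15.9% of genes were called. Among P3, P4 and P5 edgeR called no member and 0% of genes in the 3 pairs, while 2080 genes (P4 against P3), 1587 (P5 against P3) and 351 (P5 against P4) but none of the members had an unadjusted p under 0.05, and DESeq2 called 123, 43 and 30 genes and 0 members.

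**Figure D3:**
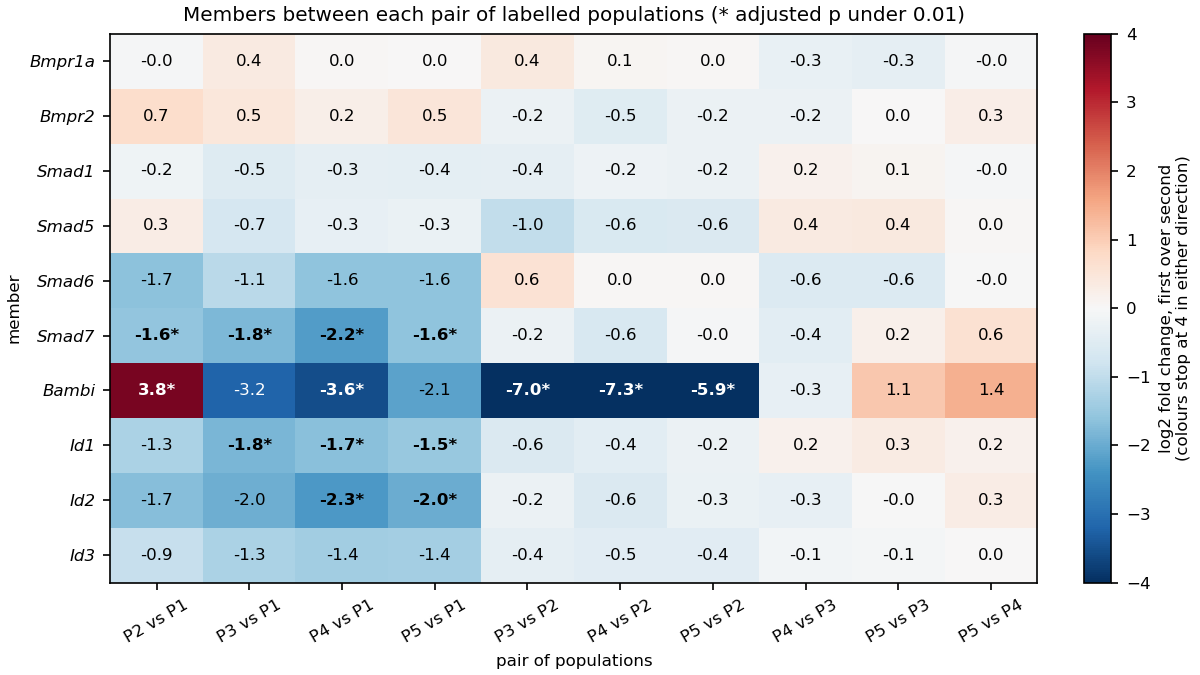
Log2 fold changes of the 10 members (rows) in the 10 pairs of labelled populations (columns, first over second) from the edgeR model, with the value printed in each cell and a star where the adjusted p was under 0.01. The starred cells lie in the columns against P1 and in the Bambi row, and the columns among P3, P4 and P5 have none.

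All fold changes are relative to the trimmed-mean (TMM) scaling, with factors of 0.4904 to 1.561 across the libraries. With library totals in place of TMM, the median of all genes moved to 0.75 (log2) for P4 against P1, 0.63 for P5 against P1, -0.43 for P2 against P1, -0.41 for P3 against P1, 1.07 for P4 against P2, 0.99 for P5 against P2, 0.99 for P4 against P3 and 0.94 for P5 against P3. The share of called genes that were higher in the first population then went from 40.2% to 76.3% for P4 against P1, 43.3% to 80.2% for P5 against P1, 47.8% to 27.1% for P2 against P1, 51.4% to 8.3% for P3 against P1, 44.0% to 90.6% for P4 against P2 and 44.9% to 87.9% for P5 against P2. Id1, Id2, Id3, Smad6, Smad7 and Bambi still had negative differences from P1, between -2.87 and -0.69 (log2) in P4 and between -1.57 and -0.77 in P5, but no member was called in these pairs. In the comparisons of P4 and P5 with P2, the 9 members other than Bambi were all higher under library totals, so a direction there is not given.

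Per length of merged exons, the Id genes had the highest levels of the members in P1, and Bambi spanned the widest range. Id1 was at 110 and 135 CPM per kilobase in P1 and at 30.9 to 71.3 elsewhere, and Id3 and Id2 were at 62.0 and 84.8 and at 84.5 and 52.1 in P1. Bmpr1a stayed within 12.4 to 19.4 CPM per kilobase in all 10 libraries, above Smad1 (6.28 to 10.1), Smad5 (2.99 to 9.44) and Bmpr2 (3.18 to 7.02). Smad6 ranged from 1.65 to 13.9 and Smad7 from 2.03 to 11.2. Bambi went from 0.243 CPM per kilobase in P4 replicate 1 to 72 in P2 replicate 1, where it exceeded all 3 Id genes. In P2 replicate 2 it was at 67.5, below Id1 at 71.3.

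**Figure D4:**
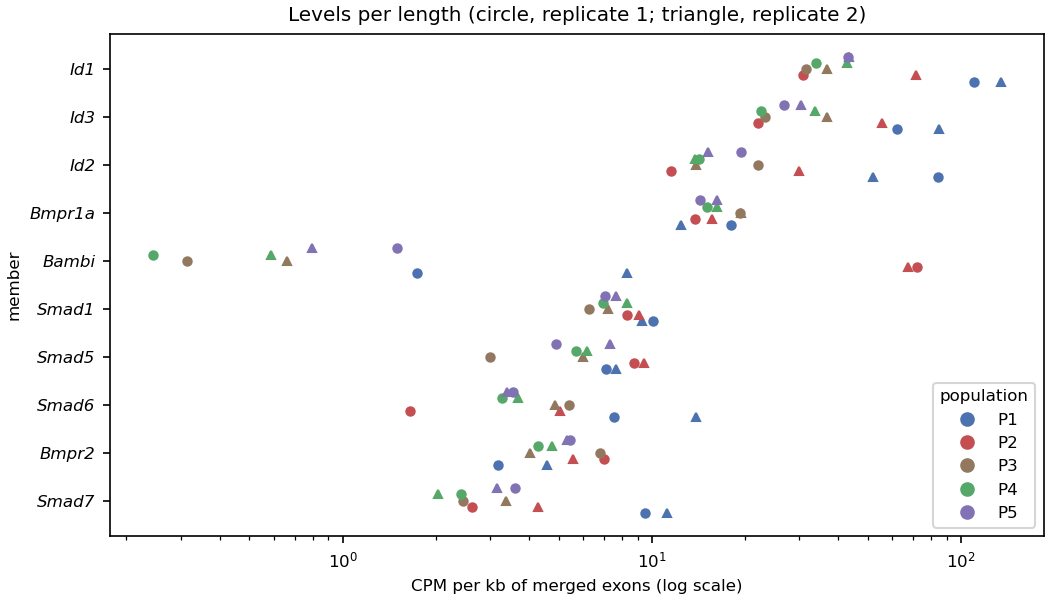
CPM per kilobase of merged exons (horizontal axis, log scale) for each member (vertical axis, in order of mean level) in the 10 libraries, coloured by labelled population, with replicate 1 as a circle and replicate 2 as a triangle. With this TMM scaling, Id1 has the highest mean level, Bmpr1a, Smad1 and Bmpr2 lie in narrow ranges, and Bambi covers the widest range.

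Across the 10 libraries, on the log2 CPM scale, Pearson's r of Id1 was 0.955 with Id3, 0.939 with Smad7, 0.902 with Id2 and 0.814 with Smad6, as a description of libraries that share populations and scaling. Smad1 had r = 0.813 with Id1, whereas the receptors had r = -0.303 (Bmpr1a) and -0.529 (Bmpr2) with Id1. These r values rest on TMM scaling and are not given for library totals. With library totals, Smad1 had its highest mean in P4, at 68.3 CPM against 53.7 in P1, and Id1 in P1, at 135 against 68.5 in P4. Without the P1 libraries, over 8 libraries, Id1 had r = 0.889 with Id3, 0.677 with Id2, 0.662 with Smad7 and 0.399 with Smad6. Over the same 8 libraries it had r = 0.653 with Smad1, -0.138 with Bmpr1a and -0.134 with Bmpr2. Among genes that are not members, the 3 most alike to Id1 over the 10 libraries were Cyth2 (r = 0.994), which activates ARF GTPases, Brms1 (0.987) and the adaptor gene Grb2 (0.985). The 3 most alike to Id2 were the co-chaperone gene Dnaja1 (0.982), Vcpip1 (0.979) and Max (0.976), whose protein pairs with Myc. The 3 most alike to Id3 were Tnfaip8l3 (0.979), Mrc1 (0.977) and Zfp622 (0.974), of which Mrc1 was at 0 CPM in 4 libraries and at most 3.84 CPM.

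Around the members, 92 further genes of the pathway were examined, of which 57 passed the filter on low counts and 28 passed the test over the 5 populations, where 36.3% of all genes tested passed. Of the 28, 9 had their highest mean in P1, 14 in P2, 3 in P3, 1 in P4 and 1 in P5 with TMM, and 8, 10, 0, 9 and 1 with library totals. The same split over all called genes is not given, so these counts, here and by list, are not read as particular to the pathway. The population with the highest mean was the same under both scalings for 8 of the genes assigned to P1 and 10 of those assigned to P2, while Bmp3, Rgmb, Neo1, Twsg1, Gata4, Tgfbr1, Acvr1b and Ets2 turned to P4. The Paneth, goblet, enteroendocrine and tuft sums given beside Bambi were also highest in P2, and their part in the pathway genes that were highest there was not tested. Among the 15 genes of the ligand list, which includes the protease gene Bmp1, 7 passed the filter and 3 the test. Bmp7 was at 62.9 ± 11.6 CPM in P2 and 4.93 to 15.6 in the other populations (adjusted p = 0.00137), and Bmp2 at 24.2 ± 9.23 in P2 and 4.52 to 7.89 elsewhere (adjusted p = 0.00948). Bmp3, a ligand that opposes other BMPs, was lowest in P1 and P2, at 11.2 and 11.1 CPM, and with TMM reached 80.0 ± 65.6 in P3, where its replicates were at 126 and 33.6 CPM (adjusted p = 0.00859).

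Of 10 other receptors and co-receptors, 6 passed the filter and 4 the test, 3 of them highest in P2 with TMM and 2 with library totals. The co-receptor gene Rgmb was at 245 ± 62.3 CPM in P2, 136 ± 35.1 in P4, 130 ± 31.3 in P5, 55.5 ± 19.4 in P3 and 30.9 ± 16.5 in P1 (adjusted p = 0.00239), and with library totals it was instead 0.295 and 0.128 (log2) higher in P4 and P5 than in P2. It is also one of the stem cell markers listed. The type I receptor gene Acvr1 was at 33.7 ± 7.69 CPM in P2 and 5.44 to 15.5 elsewhere (adjusted p = 0.00225), and Acvrl1 at 16.9 ± 8.46 in P2 and at most 1.18 elsewhere (adjusted p = 0.000518). Neo1, the receptor for Rgm proteins, was lowest in P1, at 43.0 ± 4.42 CPM against 103 to 143 (adjusted p = 0.00314). Of the extracellular antagonists, 4 of 14 passed the filter, and Twsg1 passed the test, at 15.3 ± 0.138 CPM in P1 and 28.3 to 43.0 elsewhere (adjusted p = 0.00333).

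Of 16 other SMADs and modulators, 15 passed the filter and 6 the test, 5 of them highest in P1. Smad4, the partner of all receptor SMADs, was at 263 ± 74.3 CPM in P1 and 74.4 to 117 elsewhere (adjusted p = 0.00138). Skil, which encodes the SMAD co-repressor SnoN, was at 220 ± 54.4 in P1, 98.0 ± 47.0 in P2 and 30.2 to 42.1 in the other populations (adjusted p = 0.000565). The phosphatase genes Ppm1a (436 ± 34.7 CPM in P1, 102 to 171 elsewhere, adjusted p = 0.00105) and Ctdsp1 (296 ± 75.3 in P1, 96.4 to 118 elsewhere, adjusted p = 0.00161) and the ubiquitin ligase gene Smurf2 (129 ± 11.2 in P1, 51.0 to 70.5 elsewhere, adjusted p = 0.00265) were likewise highest in P1. Ube2o, a ubiquitin-conjugating enzyme gene, was highest in P2, at 33.8 ± 0.332 CPM against 7.81 to 15.3 (adjusted p = 0.00114). Against P1, 5 of the 15 genes were lower and 2 higher in P2 where 29.1% of all genes were called, 4 lower and 0 higher in P3 (15.6% of all genes), 5 and 0 in P4 (23.5%) and 5 and 0 in P5 (19.8%). The median log2 difference of the 15 genes in P4 was -0.81 with TMM and -0.11 with library totals, under which 2 were lower and 1 higher.

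Of 12 other targets, 6 passed the filter and 4 the test. Klf4, a factor of differentiated epithelium, was at 614 ± 132 CPM in P1, 295 ± 117 in P2 and 44.7 to 55.7 in the other populations (adjusted p = 0.000205), and the cell cycle inhibitor gene Cdkn1a at 422 ± 12.1 in P1, 233 ± 103 in P2 and 49.5 to 77.1 elsewhere (adjusted p = 0.000523). Gata4 was lowest in P2, at 75.5 ± 7.43 CPM (adjusted p = 0.00584), and highest in P1, at 210 ± 26.7, with TMM, while with library totals it was 0.184 and 0.088 (log2) higher in P4 and P5 than in P1. Hes1, a Notch target, was low in both P1 and P2, at 17.1 ± 4.36 and 10.2 ± 1.57 CPM, against 38.7 to 42.7 elsewhere (adjusted p = 0.00196).

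Of 17 genes of the TGF-beta and activin arm, 11 passed the filter and 5 the test. The type I receptor gene Acvr1c was at 172 ± 51.7 CPM in P2 and 7.46 to 19.1 elsewhere (adjusted p = 0.00013), and Tgfb1 was also highest in P2, at 9.58 ± 2.80 CPM (adjusted p = 0.00195). Tgfbr1 was highest in P2 with TMM, at 51.8 ± 0.0948 CPM (adjusted p = 0.0036), and in P4 with library totals. Smad2 was highest in P1, at 60.4 ± 9.21 CPM against 23.4 to 32.9 (adjusted p = 0.00366), and Acvr1b lowest there, at 27.6 ± 7.37 against 63.3 to 96.6 (adjusted p = 0.00468).

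All 8 partner genes of the Id proteins or related factors passed the filter and 5 the test, 4 of them highest in P2 with TMM and 3 with library totals. Atoh1, the factor of secretory fate, was at 150 ± 20.4 CPM in P2 and 5.13 to 16.6 elsewhere (adjusted p = 0.00013), and Tcf12, an E protein gene, at 337 ± 81.4 in P2 and 50.2 to 83.4 elsewhere (adjusted p = 0.000206). Neurod1, a factor of enteroendocrine cells, was at 39.8 ± 27.4 CPM in P2 and 1.83 to 5.66 elsewhere (adjusted p = 0.000855), and Ets2 at 371 ± 36.0 in P2 and 102 to 187 elsewhere with TMM (adjusted p = 0.00232), but at 259 CPM in both P2 and P4 with library totals. Ascl2, a stem cell factor, was at 23.0 ± 4.2 in P4 and 26.7 ± 2.40 in P5 and at 2.78 to 5.72 CPM elsewhere (adjusted p = 0.00134).

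**Figure D5:**
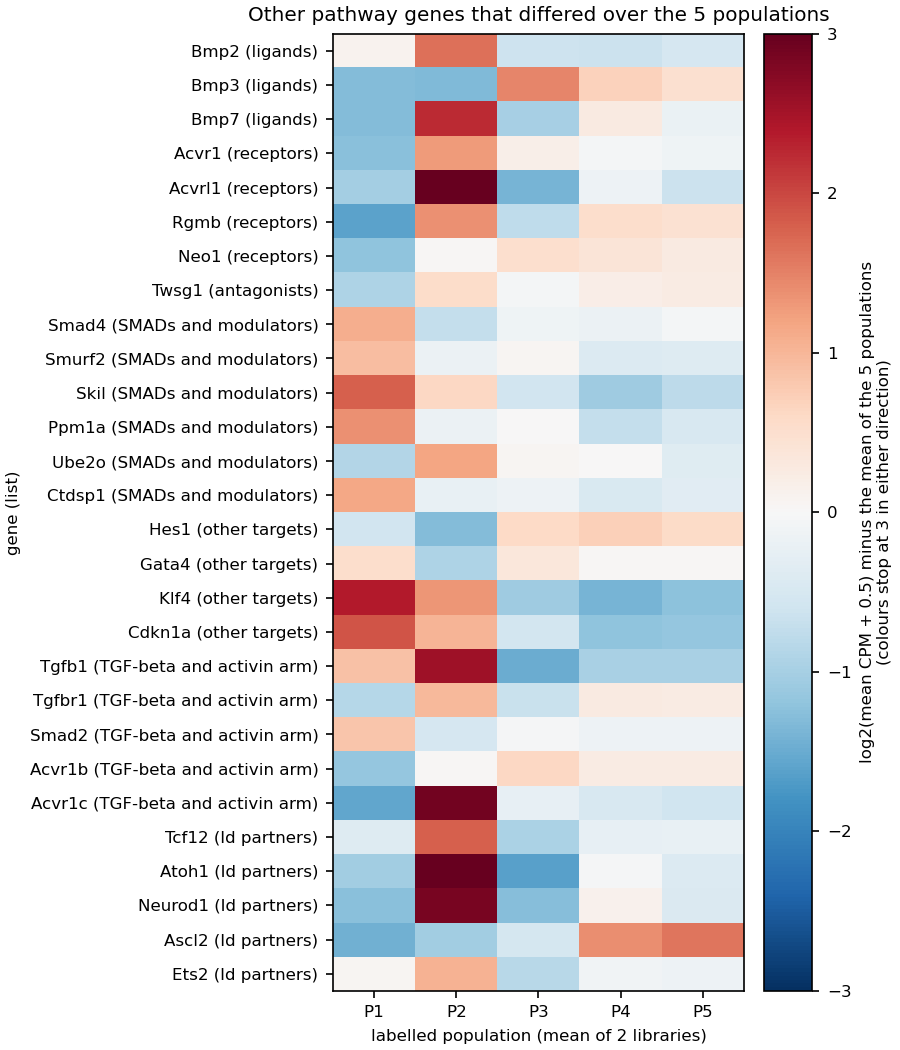
Log2(mean CPM + 0.5) of the 28 further pathway genes that passed the test over the 5 populations, as the difference from the mean of the 5 populations, by gene with its list (rows) and labelled population (columns). Of the genes, 14 have their highest mean in P2 and 9 in P1 with this TMM scaling, and 10 and 8 with library totals. The same split over all called genes is not given.

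By the labels, P1 and P3 share the OSCARlow gate and P4 and P5 the OSCARmed gate, which gives an EF1a difference within each. Between P3 and P1 it was -1.80 for Smad7, -3.22 for Bambi, -1.83 for Id1, -1.95 for Id2 and -1.27 for Id3 (log2), and between P5 and P4 it was 0.61, 1.42, 0.17, 0.31 and 0.02. In a test of the difference between the pairs, added after values had been seen, edgeR called 0 of the 10 members and 0.817% of all genes. The difference was -2.41 ± 0.43 for Smad7 (adjusted p = 0.0119), -4.64 ± 1.09 for Bambi (adjusted p = 0.0225), -2.01 ± 0.48 for Id1 (adjusted p = 0.0244) and -2.26 ± 0.61 for Id2 (adjusted p = 0.0348), and these 4 members had an unadjusted p under 0.05, as did 33.9% of all genes. DESeq2 called 4 members and 15% of all genes. Reading the first pair as an EF1a difference rests on the label of P3, whose libraries also had the high mitochondrial shares. Between P2 and P1, Smad7 (-1.58), Id1 (-1.25), Id2 (-1.71) and Id3 (-0.92) were also negative, while Bambi was at 3.79 (log2).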

How the data were processed

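Poly-A RNA of 10 libraries, 2 for each of 5 sorted populations, was sequenced after unstranded TruSeq preparation. The authors mapped reads to mm9 with TopHat 2.1.0 and deposited counts of reads per gene from HTSeq-count 0.11.2, without normalization, counting exons without strand and dropping reads with several alignments. FastQC 0.11.5 was used for read quality, and the annotation they counted on is not given in the sources used here.

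Samples were grouped by their deposited titles. Reads with no gene name (0.000192% to 0.000596% of counts) and 183 rRNA gene names were left out. edgeR 4.0.16 (R 4.3.3) fitted 5 population means over the 10 libraries (filterByExpr, TMM, 5 residual degrees of freedom, 13708 genes), with the quasi-likelihood test, Benjamini-Hochberg adjustment over all genes and a threshold of 0.01. DESeq2 1.42.0 was an alternative. Standard errors came from the F statistics. Positions and exon lengths came from the GENCODE annotation of NCBIM37 (33643 of 35006 rows matched by name), which is the same build as mm9. The procedure was tested on simulated data. Members and lists were chosen with earlier results of these data known. All members were named, with list genes past the threshold over the 5 populations, at most 6 a list, and the 3 genes most alike to each Id gene. Figures were drawn with Python 3.11.15 and matplotlib 3.10.9.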

Additional observations from a re-analysis of the deposited data

How the results depend on the processing

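No fold change named as called changed direction under any alternative run. The Bambi calls against P2, and of P2 against P1, held in all of them, while the calls of Smad7, Id1 and Id2 against P1 and of Bambi in P4 against P1 were lost in some. With a single library left out, the members called ranged from 1 to 5 over the 5 populations, 1 to 5 for P2 against P1, 0 to 3 for P3 against P1, 0 to 6 for P4 against P1, 0 to 4 for P5 against P1 and 1 to 2 for P3 against P2, and fewer samples are left to estimate the spread. The counts of 0 for P3, P4 and P5 against P1 were found where 0% to 3.96% of all genes were called, except for P3 against P1 without P3 replicate 1, where 14.6% were. Without P1 replicate 1 and P3 replicate 1, chosen after seeing the data, 2 were called over the 5 populations (28.1% of all genes), 0 for P3 against P1 (0%) and 2 for P4 against P1 (16.1%). Without the filter on low counts, 6 members were called for P2 against P1 (25% of all genes), 5 for P3 against P1 (18.2%), 6 for P5 against P1 (21%), 2 for P3 against P2 (20.2%), 1 for P5 against P4 (0.886%) and 5 for the difference of the EF1a effects (10.5%). DESeq2 called 5 for P2 against P1 (37.5%), 4 for P3 against P1 (26.1%), 6 for P5 against P1 (30.6%) and 4 for the difference (15%), and a threshold of 0.05 gave 5 (47.2%), 5 (34%), 6 (39.3%) and 4 (17.3%), with 2 for P3 against P2 (37.3%). DESeq2 size factors gave 1 for the difference (2.64%). Library totals, chosen after seeing the data, gave 0 for P4 against P1 (15.3%) and 0 for P5 against P1 (9.4%), and the 4 compared libraries alone gave 0 for P3 against P1, where 0% of all genes were called. Over all genes and the 5 populations, 4976 genes were called by edgeR and 7352 by DESeq2.

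The replicate numbers were not taken to pair the libraries: deviations from the population means correlated between same-numbered libraries at -0.0597 to 0.554 (median 0.255), over 0.1 in 9 of 10 pairs of populations. With the replicate block, 4 members were called for P2 against P1 (33% of all genes), 4 for P3 against P1 (19%) and 1 for the difference (4.57%), and Id3 passed over the 5 populations (adjusted p = 0.00391). The causes of these changes were not tested. Depth limits Bambi outside P1 and P2, where it rested on 3 to 66 counts per library.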
